A study of Mus musculus with 6 samples.

Results

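Mitochondrial fatty acid oxidation was examined through 10 genes, which were looked up by name (Cpt1a, Cpt1b, Cpt2, Slc25a20, Acadm, Acadl, Acadvl, Hadha, Hadhb and Acaa2) in a table of 36144 gene rows from mouse subcutaneous white adipose tissue. All 10 were listed and all 10 passed the filter on low values, among 14144 genes tested. Mitochondria burn long-chain fatty acids in a fixed order. An acyl group is first passed to carnitine by carnitine palmitoyltransferase 1 in the outer membrane (Cpt1a or Cpt1b), carried across the inner membrane by the carnitine-acylcarnitine carrier (Slc25a20) and returned to coenzyme A by Cpt2. It is then shortened in rounds by acyl-CoA dehydrogenases (Acadvl, Acadl, Acadm), by the trifunctional protein (Hadha and Hadhb) and by a thiolase (Acaa2). The entry step is held back by malonyl-CoA, the building block of fatty acid synthesis. In white fat most fatty acid is stored or released, whereas brown and beige adipocytes and muscle oxidise it in quantity, and Cpt1b is the form of the entry enzyme typical of muscle and brown fat.

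The study compared 3 libraries titled Tumor with 3 titled WT by poly-A RNA sequencing, each titled as a numbered biological replicate. In the genotype labels the Tumor libraries come from Msra full-body knockout hosts and the WT libraries from Msra wild-type hosts, and the treatment label of all 6 is an orthotopic transplant. The design text describes pancreatic ductal adenocarcinoma cells placed in hosts of both genotypes, with fat collected after 4 to 5 weeks, while the series title contrasts tumour-bearing mice with tumour-free controls. Tumour bearing and Msra genotype therefore cannot be told apart here, and groups are called by their titles. The sources used here do not give the age, sex or strain of the mice or the name of the tumour line, nor whether RNA of several animals was pooled. Msra itself was present throughout, at 52.9, 40.0 and 26.9 TPM in the Tumor libraries, which carry the knockout label, against 51.1, 59.1 and 56.3 TPM in the WT libraries.

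Values are TPM, a transcript abundance corrected for transcript length and scaled to a common total, so levels may be compared between genes. Depth could be read only from the steps between low values, where the smallest step, 1 fragment, came to 0.0378 to 0.0503 TPM for a usable transcript length of 1 kb. The floor of 3 fragments was 0.113 to 0.151 TPM, far below every member in every library. Adipocyte markers were abundant in all libraries, with Adipoq (adiponectin) at 3455, 2023 and 721 TPM in the Tumor libraries and 1413, 1711 and 3403 TPM in the WT libraries. Tumor replicate 1 and WT replicate 3 were poor in lymphocyte transcripts, with the 10 lymphoid markers summing to 21.7 and 8.82 TPM, while the other 4 libraries held 1326 to 3475 TPM. Skeletal muscle transcripts were high in all Tumor libraries and in WT replicate 2 and near 0 in WT replicates 1 and 3.

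Before the levels, 3 promoter sequences are shown (RefSeq, GRCm38.p6), each covering the 250 bases before the gene start in RefSeq. Starts can differ between annotations, and the Cpt1a window lies inside the gene as GENCODE M21 draws it, from 3322334. Hadhb stands for the pair that makes the trifunctional protein, since Hadha and Hadhb lie head to head on chromosome 5 with 272 bases between their RefSeq starts, and 228 of the bases shown are also in the Hadha window on the other strand. Acadvl is shown for its hormone response half-site, and Cpt1a as the one gene of the set with a higher mean in the Tumor libraries, where it did not pass the test. Capitals mark AGGTCA (the nuclear receptor half-site), GGGCGG (the GC box) and CCAAT (the CCAAT box), on either strand. The windows are chr5:30155003-30155252 (plus strand), chr11:70015429-70015678 (minus strand) and chr19:3323051-3323300 (plus strand).
Hadhb: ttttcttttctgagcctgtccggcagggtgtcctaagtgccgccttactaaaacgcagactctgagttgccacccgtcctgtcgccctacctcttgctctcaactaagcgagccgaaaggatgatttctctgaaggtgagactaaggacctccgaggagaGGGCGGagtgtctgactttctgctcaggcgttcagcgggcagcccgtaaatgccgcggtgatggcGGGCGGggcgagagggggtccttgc
Acadvl: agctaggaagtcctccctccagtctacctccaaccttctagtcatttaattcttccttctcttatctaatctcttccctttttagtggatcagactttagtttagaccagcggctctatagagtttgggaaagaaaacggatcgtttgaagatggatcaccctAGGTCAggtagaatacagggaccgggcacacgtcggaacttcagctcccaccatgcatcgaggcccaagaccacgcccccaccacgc
Cpt1a: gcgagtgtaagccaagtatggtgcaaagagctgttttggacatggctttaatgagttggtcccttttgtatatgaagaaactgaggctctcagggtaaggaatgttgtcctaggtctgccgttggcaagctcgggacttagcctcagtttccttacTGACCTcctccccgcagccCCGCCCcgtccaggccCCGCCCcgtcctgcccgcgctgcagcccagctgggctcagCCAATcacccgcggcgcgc
Promoters of 8 members were matched, and those of Cpt1b and Acaa2 were not. AGGTCA, read on both strands, occurred in 3 of the 8 (Acadm, Acadvl and Cpt1a), where 14.0% of all 32851 promoter windows of this length hold it. GGGCGG occurred in 6 of the 8, against 32.7% of all windows, although the site in Hadha is also one of those in Hadhb and is counted for both, and CCAAT in Cpt1a, against 33.8%. The longer letters TNAAGGTCA, the extended half-site bound by ERR receptors, and the direct repeat of AGGTCA spaced by 1 base, bound by PPAR with RXR, both contain AGGTCA and occurred in 0 of the 8, against 1.14% and 0.0335% of all windows. Such matches describe letters in these windows and not bound sites.

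Of the 10 members, 9 were lower on average in the Tumor libraries and 1, Cpt1a, was higher, and 0 passed the test. Of all genes tested, 23.2% had a negative difference. The test was limma's moderated test on log2(TPM + 1) with Benjamini-Hochberg adjustment over all 14144 genes at a threshold of 0.05, and 0 genes (0%) passed it in the whole table. The adjusted p was 0.737 for every member. At an unadjusted p below 0.05 there were 6 members, all lower (Hadha, Slc25a20, Hadhb, Acadvl, Cpt1b and Acadl), where 1.7% of all genes were lower and 3.75% higher at that level. In 7 members every Tumor library lay below every WT library, where 3.24% of all genes did so, and in 0 members was the reverse true, where 11.8% of all genes had it. When the libraries were scaled to adipocyte markers, 0 of the 10 lay below every WT library, as described further on. The median difference of the 10 was -0.82 on the log2(TPM + 1) scale, while the median of all genes tested was 0.23. Because the members were chosen with results of these libraries known, these counts describe them and carry no p-value. In bulk tissue, fewer cells of a type and less RNA per cell cannot be told apart.

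**Figure D1:**
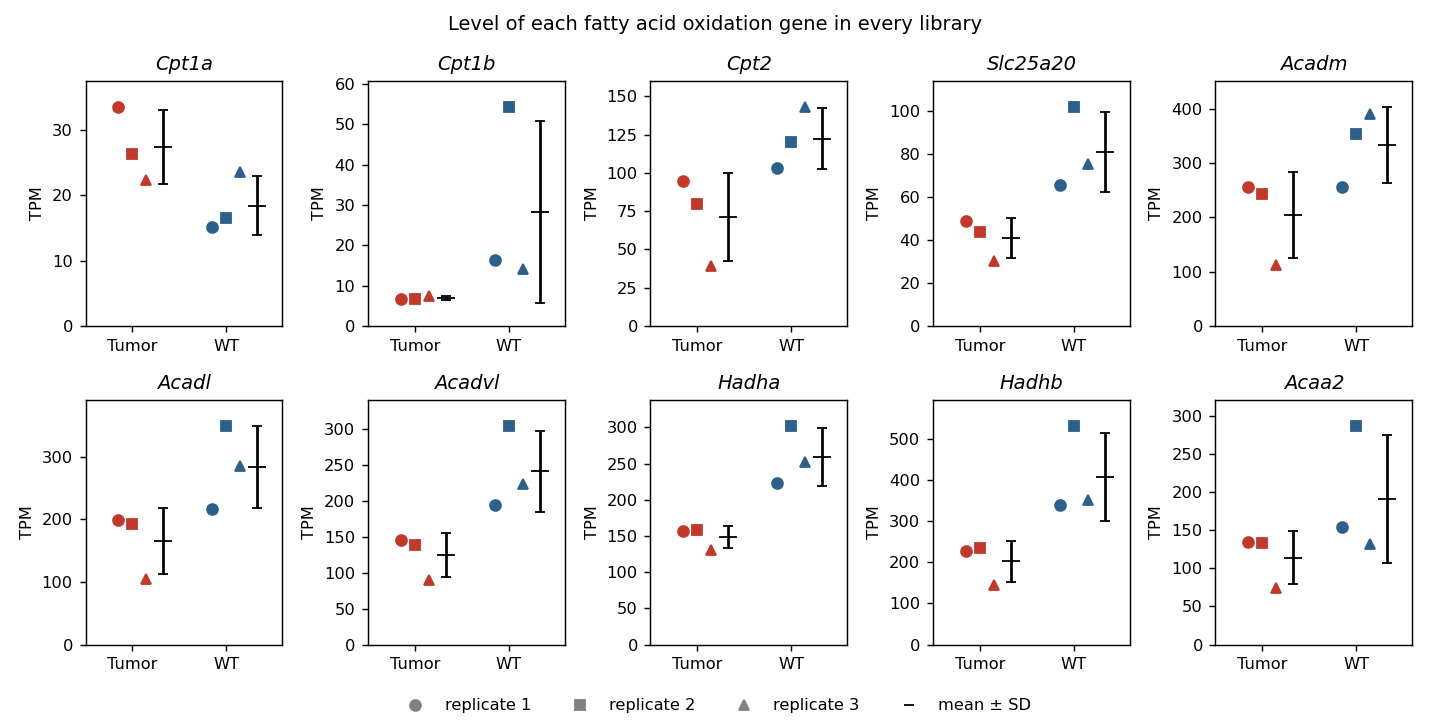
TPM of each of the 10 genes (vertical axes from 0, a scale for each gene), with Tumor libraries left and WT libraries right, a symbol per replicate number, and the mean with its SD beside the points. The groups separate in 7 genes and overlap in Cpt1a, Acadm and Acaa2, and Cpt1a alone has the higher mean in the Tumor libraries.

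The genes of the entry step differed in opposite directions, and neither passed the test. Cpt1a (chromosome 19, 3322334 to 3385733, GRCm38 with GENCODE M21), the widespread form, measured 33.5, 26.4 and 22.4 TPM in the Tumor libraries and 15.2, 16.5 and 23.6 TPM in the WT libraries. The groups overlapped, because WT replicate 3 exceeded Tumor replicate 3, and when either of these libraries was left out every remaining Tumor library lay above every remaining WT library. The means were 27.4 ± 5.64 TPM and 18.4 ± 4.53 TPM (SD, n = 3 each), 1.49-fold higher in Tumor, and the log2 difference was 0.55 with an SE of 0.24. Cpt1b (chromosome 15, 89416405 to 89425863), the muscle and brown fat form, measured 6.75, 6.73 and 7.45 TPM in the Tumor libraries and 16.3, 54.2 and 14.2 TPM in the WT libraries. The Tumor libraries were close to each other and all below the lowest WT library, while WT replicate 2 stood far above the others. The means were 6.98 ± 0.408 TPM and 28.3 ± 22.5 TPM (SD, n = 3 each), 4.05-fold lower in Tumor, and the log2 difference was -1.62 with an SE of 0.51. Without WT replicate 2 this difference was -1.03. Cpt1b shares most of its exons with Gm44502, a longer transcript annotated on the same strand (89416405 to 89429696) that runs into the neighbouring gene Chkb. Gm44502 was listed at 0.611, 0.570 and 2.15e-06 TPM in the Tumor libraries and at 0, 0 and 0.924 TPM in the WT libraries, and how reads in shared exons were divided is not stated, so that the Cpt1b level is uncertain to that extent.

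A ratio of these genes within a library does not depend on how the library is scaled. Cpt1b TPM divided by Cpt1a TPM came to 0.201, 0.255 and 0.333 in the Tumor libraries and to 1.08, 3.28 and 0.602 in the WT libraries. Cpt1a exceeded Cpt1b in all Tumor libraries and in WT replicate 3, and Cpt1b exceeded Cpt1a in WT replicates 1 and 2. On the log2 scale the ratio averaged -1.96 ± 0.363 in the Tumor libraries and 0.36 ± 1.24 in the WT libraries (SD, n = 3 each), a difference of -2.32 or a 4.99-fold lower ratio. The groups did not overlap, and the two-sided exact permutation test gave p = 0.1, the smallest that 3 against 3 allows. The difference ran from -2.87 without WT replicate 3 to -1.64 without WT replicate 2.

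**Figure D2:**
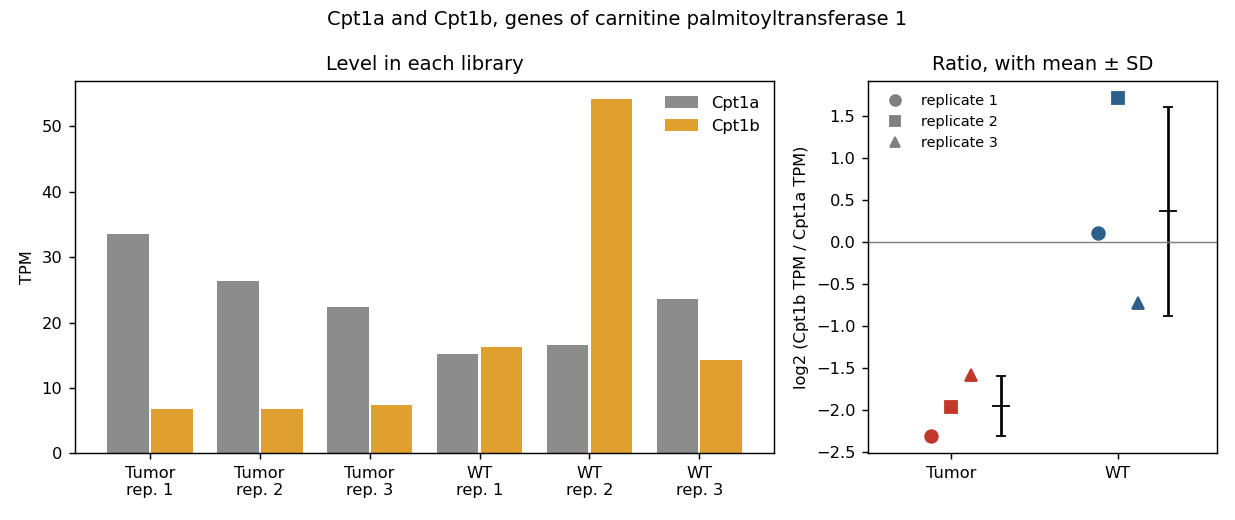
Left, TPM of Cpt1a and Cpt1b in each library (bars from 0, Tumor libraries first); right, the log2 ratio of Cpt1b to Cpt1a per library with the mean and SD of each group. The ratio lies between -2.31 and -1.59 in the Tumor libraries and between -0.73 and 1.71 in the WT libraries.

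The carrier and the inner membrane enzyme were both lower in the Tumor libraries. Slc25a20 (chromosome 9, 108662088 to 108684641) measured 48.6, 43.5 and 30.4 TPM in the Tumor libraries and 65.7, 101.6 and 75.5 TPM in the WT libraries. The groups were separate, and the log2 difference was -0.97 with an SE of 0.25. Cpt2 (chromosome 4, 107903981 to 107923610) measured 94.8, 79.4 and 39.4 TPM in the Tumor libraries and 103.0, 120.4 and 142.8 TPM in the WT libraries. They were separate by a narrow margin, with Tumor replicate 1 just under WT replicate 1 and Tumor replicate 3 far below both. The means were 71.2 ± 28.6 TPM and 122.1 ± 19.9 TPM (SD, n = 3 each) and the log2 difference was -0.85 with an SE of 0.35. Without Tumor replicate 3, the library with the least adiponectin transcript, the Cpt2 difference was -0.48.

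The acyl-CoA dehydrogenases, which start each round and differ in the chain length they accept, were lower in the Tumor libraries on average. The gap between the lowest WT and the highest Tumor library was widest for Acadvl, narrower for Acadl and absent for Acadm. Acadvl, the very long-chain enzyme (chromosome 11, 70010183 to 70015411), measured 145.9, 138.3 and 89.0 TPM in the Tumor libraries and 194.6, 304.1 and 223.7 TPM in the WT libraries. Its groups were separate, 1.94-fold lower in Tumor by the means, and the log2 difference was -0.95 with an SE of 0.27. Acadl, the long-chain enzyme (chromosome 1, 66830839 to 66863277), measured 199.8, 193.1 and 105.6 TPM in the Tumor libraries and 217.1, 349.1 and 285.6 TPM in the WT libraries. These groups were also separate, and the log2 difference was -0.80 (SE 0.32). Acadm, the medium-chain enzyme (chromosome 3, 153922357 to 153944632), measured 256.7, 242.0 and 113.0 TPM in the Tumor libraries and 256.1, 352.6 and 390.7 TPM in the WT libraries. Here Tumor replicate 1 reached the level of WT replicate 1, so the groups touched, and the log2 difference was -0.77 (SE 0.37). Without Tumor replicate 3 the differences were -0.73 for Acadvl, -0.50 for Acadl and -0.39 for Acadm. Their proportions within a library overlapped between the groups. The log2 ratio of Acadm to Acadvl averaged 0.66 ± 0.270 in the Tumor libraries and 0.47 ± 0.303 in the WT libraries (SD, n = 3 each), and a two-sided exact permutation test gave p = 0.5.

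The trifunctional protein has an alpha subunit (Hadha) that hydrates and oxidises the chain and a beta subunit (Hadhb) that cleaves it, and transcripts of both were lower in all Tumor libraries. Hadhb (chromosome 5, 30155248 to 30184593) measured 226.4, 234.9 and 145.4 TPM in the Tumor libraries and 339.5, 531.1 and 350.6 TPM in the WT libraries. The lowest WT library was well above the highest Tumor library, the Tumor mean was 2.01-fold lower, and the log2 difference was -1.01 with an SE of 0.29. Hadha (chromosome 5, 30118304 to 30155162) measured 156.6, 157.7 and 130.7 TPM in the Tumor libraries and 222.6, 302.2 and 252.7 TPM in the WT libraries. The groups were again separate, and the log2 difference of -0.79 had the smallest SE (0.19) and the smallest unadjusted p (0.00517) of the 10. Hadha per Hadhb was 0.692, 0.671 and 0.899 in the Tumor libraries and 0.656, 0.569 and 0.721 in the WT libraries, which overlapped (two-sided exact permutation p = 0.4). These are the genes whose shared promoter region is printed above. Acaa2, the thiolase of medium-length chains (chromosome 18, 74779197 to 74806208), measured 134.5, 133.0 and 73.7 TPM in the Tumor libraries and 153.7, 286.9 and 132.0 TPM in the WT libraries. Its groups overlapped, since WT replicate 3 was the lowest of its group and below Tumor replicates 1 and 2. The log2 difference of -0.71 (SE 0.38) was -0.37 without WT replicate 2.

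In order of level over all 6 libraries the genes ran Hadhb, Acadm, Acadl, Hadha, Acadvl, Acaa2, Cpt2, Slc25a20, Cpt1a and Cpt1b, with means of 305 TPM at the top and 17.6 TPM at the bottom. Hadhb exceeded Acadm in 3 of 6 libraries and Acadl exceeded Hadha in 4, so these neighbours were not told apart, while Acadm exceeded Acadl, and Cpt2 exceeded Slc25a20, in all 6. The genes of the entry step thus had the lowest transcript levels of the set. Together the 10 genes summed to 1304, 1255 and 757 TPM in the Tumor libraries and to 1584, 2419 and 1891 TPM in the WT libraries, so that every Tumor library held less. As a share of that sum Cpt1a took 2.57%, 2.10% and 2.96% in the Tumor libraries and 0.957%, 0.684% and 1.25% in the WT libraries. Acadvl took 11.2%, 11.01% and 11.76% in the Tumor libraries against 12.3%, 12.6% and 11.83% in the WT libraries, a narrow separation. The shares of the other 8 overlapped between the groups. By two-sided exact permutation tests the smallest p over the 10 shares was 0.1, and the Benjamini-Hochberg value over the 10 was 0.5. Apart from Cpt1a, the members varied together across libraries. Over the 6 libraries Pearson's r of log2(TPM + 1) between pairs of the 8 genes other than Cpt1a and Cpt1b ran from 0.743 to 0.998. Between Cpt1b and these 8 genes r ran from 0.542 to 0.896. Cpt1a had negative r with all 9 others, from -0.739 with Cpt1b to -0.129 with Acadm. These are descriptions over 6 points that share the library and its composition.

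Markers of other cell types are set beside these genes. The 9 brown and beige adipocyte markers summed to 277.7, 399.8 and 251.9 TPM in the Tumor libraries and to 872, 2441 and 866 TPM in the WT libraries, so that every Tumor library held less. Between 1 and 5 of the 9 were under 1 TPM in a library. Ucp1, the uncoupling protein that defines these cells, stood at 0.383, 2.21 and 2.27 TPM in the Tumor libraries and at 71.1, 506.8 and 15.7 TPM in the WT libraries, and Cidea, a lipid droplet protein of such cells, at 33.6, 75.02 and 45.8 TPM against 132.1, 382.2 and 117.9 TPM. WT replicate 2 was thus highest in Ucp1 and Cidea and in all members but Cpt1a, Cpt2 and Acadm. Cox8b was the largest part of each brown marker sum. It stood at 213.4, 295.6 and 172.4 TPM in the Tumor libraries and at 594.9, 1234 and 688.9 TPM in the WT libraries. Of the 6 brown markers tested 0 passed in limma, 5 lay below every WT library (3.24% of all genes) and Cox7a1 overlapped. Scaled to the adipocyte markers, 3 of the 6 lay below every WT library (0.481% of all genes). Of those not tested, Dio2 lay below, while Slc27a2 and Zic1 overlapped. The part of brown adipocytes in the differences was not tested. The 14 skeletal muscle markers summed to 2468, 764 and 3095 TPM in the Tumor libraries and to 22.1, 3925 and 12.6 TPM in the WT libraries, with Acta1 (skeletal actin) at 410.2, 135.3 and 575.1 TPM against 0.953, 611.7 and 2.82 TPM. Cpt1b stood at 6.73 to 7.45 TPM in the Tumor libraries, all of which held muscle RNA, at 54.2 TPM in WT replicate 2, which had the highest muscle sum, and at 16.3 and 14.2 TPM in the WT libraries that held almost none. With the muscle markers as a covariate its difference was -2.40 (limma adjusted p = 0.686). The mean log2 level of the muscle markers was 6.10, 4.57 and 6.63 in the Tumor libraries and 0.90, 6.93 and 0.69 in the WT libraries. Muscle level thus largely follows the groups, and the covariate fit leans on WT replicate 2, so it cannot set muscle RNA apart from group. The part of muscle RNA was not tested.

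The 11 adipocyte markers summed to 45473, 33786 and 12965 TPM in the Tumor libraries and to 31310, 36667 and 55446 TPM in the WT libraries, which overlapped. Among the 11, 10 had a negative difference and 1 a positive one, where 23.2% of all genes were negative. Their median difference was -0.48, and 0 passed the test. When every library was scaled to the same mean level of these markers, a choice made after seeing the data, the median difference of the 10 genes was -0.33 and that of all genes 0.69. The 10 thus stood at -1.01 relative to the median gene in that scale, and at -1.06 in TPM. A factor per library shifts every gene almost alike, so this near equality was fixed in advance and shows nothing about the 10. In the adipocyte scale 0 members lay below every WT library, where 0.481% of all genes did, and Cpt1a lay above every WT library, where 9.73% of all genes did. Relative to the mean adipocyte marker level, Cpt1a stood at -5.16, -5.17 and -3.73 log2 units in the Tumor libraries and at -5.71, -5.57 and -5.96 in the WT libraries (two-sided exact permutation p = 0.1, the smallest possible). Cpt1b stood at -7.32, -7.00 and -5.20 in the Tumor libraries and at -5.60, -3.91 and -6.66 in the WT libraries, which overlapped. With the adipocyte markers as a covariate instead, the differences were 0.71 for Cpt1a and -1.75 for Cpt1b, and the median of the 10 was -0.67. With median-ratio factors, 9 members lay below every WT library (6.87% of all genes), all but Cpt1a, and 0 above (3.52%), and with upper-quartile factors the counts were again 9 below (6.46%) and 0 above (3.32%). Lymphocyte content crosses the groups, so the comparison was also made within it. In the 4 lymphoid-rich libraries the median of the 10 was -1.03, and between the lymphoid-poor libraries, Tumor replicate 1 and WT replicate 3, it was -0.61, with Cpt1a at 0.59 and 0.49 and Cpt1b at -1.94 and -0.97. Acaa2 was at -1.08 in the first set and at 0.03 in the second, which has 1 library per group and no test.

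**Figure D3:**
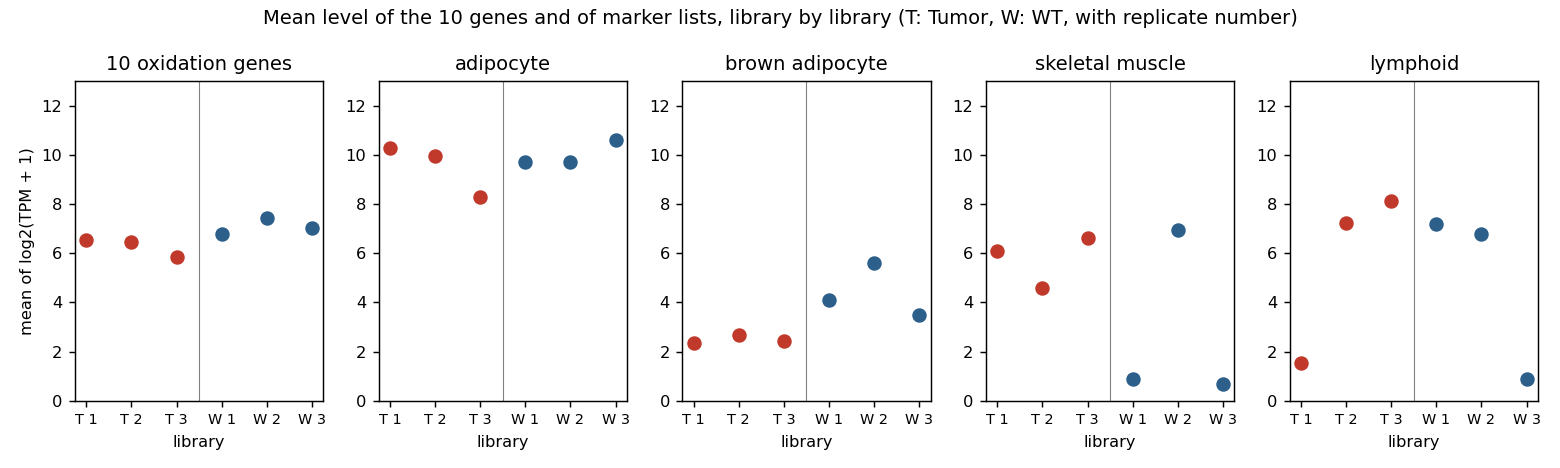
Mean of log2(TPM + 1) per library for the 10 genes and for the adipocyte, brown adipocyte, skeletal muscle and lymphoid marker lists (vertical axis 0 to 13; Tumor libraries left of the line in each panel, WT libraries right). The 10 genes and the brown markers are lower in every Tumor library, at 5.84 to 6.53 against 6.78 to 7.42 and at 2.36 to 2.66 against 3.50 to 5.59, while adipocyte, muscle and lymphoid levels overlap.

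The other matrix genes of the pathway were also lower on average. The smallest limma adjusted p in this and in each of the pathway lists that follow was 0.737. Of 16 other matrix enzymes and electron carriers, all 16 were tested and had negative differences, 0 passed, 5 lay below every WT library, and the median was -0.54. Of all genes tested, 23.2% were negative, 3.24% lay below and 11.8% above every WT library, shares that apply to each list that follows. Scaled to the adipocyte markers, 0 of the 16 lay below every WT library. Those 11 markers themselves had a median difference of -0.48 in TPM. Decr1, which prepares unsaturated chains, averaged 71.7 ± 28.6 TPM in the Tumor libraries and 122.0 ± 18.2 TPM in the WT libraries (SD, n = 3 each). Hadh, the dehydrogenase of shorter hydroxyacyl chains, averaged 220.5 ± 88.7 TPM in the Tumor libraries and 368.7 ± 58.4 TPM in the WT libraries. Acads, the short-chain acyl-CoA dehydrogenase, averaged 72.3 ± 23.2 TPM and 114.4 ± 21.9 TPM in the same order. Etfdh, which hands electrons from the acyl-CoA dehydrogenases to the respiratory chain, averaged 48.2 ± 15.9 TPM in the Tumor libraries and 78.1 ± 16.1 TPM in the WT libraries, and its groups overlapped.

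Of 9 tested activation and carnitine genes 6 were negative, 0 passed and the median was -0.06. Acsl1, the main acyl-CoA synthetase of adipocytes, stood at 452.4, 431.6 and 145.5 TPM in the Tumor libraries and at 523.5, 492.1 and 850.0 TPM in the WT libraries, while Cpt1c, a neuronal relative of Cpt1a, stood at 11.3, 7.12 and 5.40 TPM against 6.02, 3.51 and 6.09 TPM. Acsl1 was separate and Cpt1c overlapped. Genes that set malonyl-CoA had 4 negative and 4 positive differences of 8, with a median of -0.11. Acacb, the acetyl-CoA carboxylase whose malonyl-CoA restrains the entry step at the mitochondrion, stood at 38.2, 31.4 and 22.8 TPM in the Tumor libraries and at 55.8, 55.7 and 62.7 TPM in the WT libraries, and the log2 difference was -0.92 with an SE of 0.22. Acaca, the carboxylase that feeds fatty acid synthesis, averaged 72.5 ± 24.7 TPM in the Tumor libraries and 208.1 ± 65.8 TPM in the WT libraries (SD, n = 3 each). Both carboxylases were lower in every Tumor library than in every WT library. Scaled to the adipocyte markers, 1 of the 8 genes, Acaca, remained so, and Acacb overlapped. Mlycd, which breaks malonyl-CoA down, averaged 26.2 ± 3.87 TPM and 34.0 ± 4.82 TPM in the same order and overlapped.

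**Figure D4:**
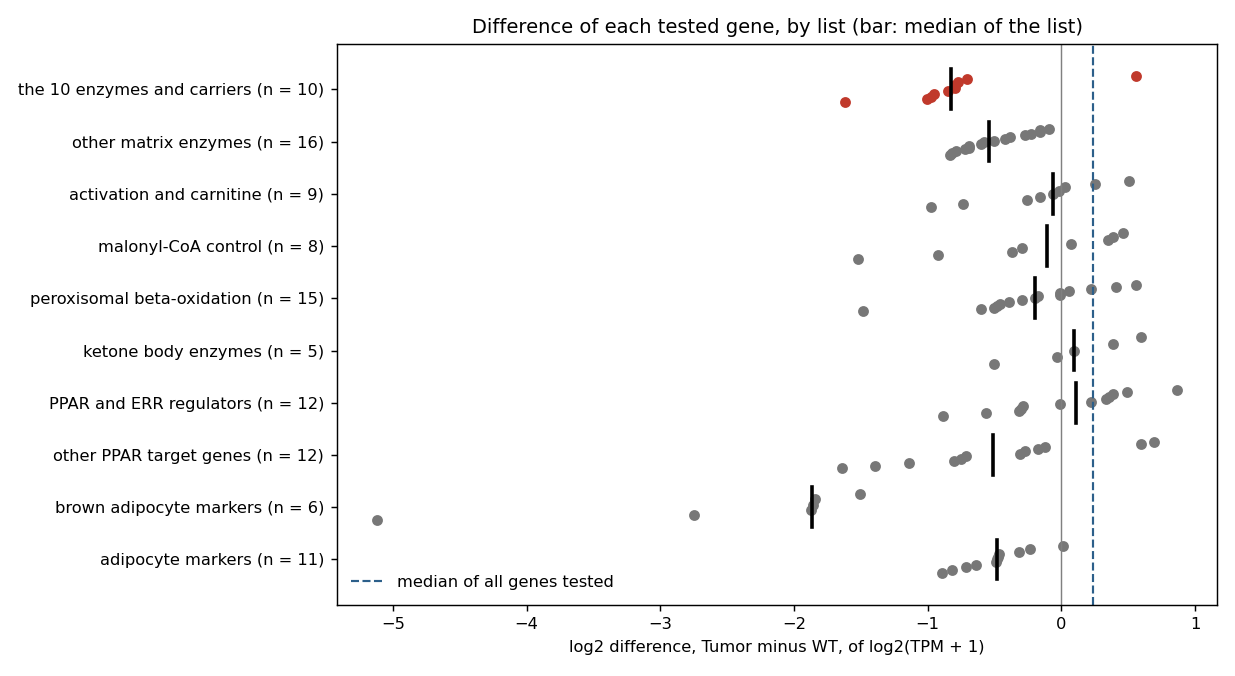
Log2 difference (Tumor minus WT, horizontal axis) of each tested gene in lists around fatty acid oxidation, with a black bar at the median of each list and a dashed line at the median of all genes tested, 0.23. The 10 genes (top row) have a median of -0.82 and the other matrix enzymes -0.54, while the ketone body enzymes and the regulators have medians of 0.09 and 0.11.

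Receptors known to switch on such genes did not share their direction. Of 12 tested PPAR and ERR factors with their partners, 6 were negative and 6 positive, 0 passed, and the median was 0.11. Ncor1, a corepressor of nuclear receptors, averaged 97.8 ± 5.67 TPM in the Tumor libraries and 70.5 ± 15.6 TPM in the WT libraries (SD, n = 3 each), and every Tumor library was above every WT library. Esrra, the receptor ERR alpha, stood at 30.3, 41.5 and 35.3 TPM in the Tumor libraries and at 48.0, 41.3 and 41.4 TPM in the WT libraries, which overlapped. Ppargc1b, a coactivator of these receptors, averaged 1.54 ± 0.355 TPM and 2.82 ± 1.03 TPM in the same order. Named after their values were seen, Ppara stood at 3.08, 3.05 and 0.621 TPM in the Tumor libraries and 1.96, 5.93 and 7.20 TPM in the WT libraries, and Pparg at 151.9, 124.5 and 40.6 TPM against 105.1, 91.6 and 156.1 TPM. Both overlapped. Of 12 tested PPAR target genes outside the pathway 10 were negative, 0 passed and the median was -0.52, beside -0.48 for the adipocyte markers. Plin5, which couples lipid droplets to mitochondria, stood at 7.37, 9.59 and 4.41 TPM in the Tumor libraries and at 15.7, 30.5 and 26.7 TPM in the WT libraries, and the log2 difference was -1.64 with an SE of 0.36. Pdk4, which turns pyruvate away from oxidation, stood at 36.7, 30.3 and 21.9 TPM in the Tumor libraries and at 30.9, 130.3 and 68.2 TPM in the WT libraries, and overlapped.

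Genes with the most similar pattern were sought among all tested genes by Pearson's r of log2(TPM + 1) over the 6 libraries. The mean of the 10 was followed most closely by Idh3g, a subunit of a citric acid cycle dehydrogenase (r = 0.998), Cox6a1, a subunit of cytochrome c oxidase (r = 0.997), the member Acadvl (r = 0.997), Fuom and Poln (r = 0.996 each). Cpt1b was followed by the proteasome subunit Psma6 (r = 0.994), the mitochondrial ribosomal protein Mrpl15, Egf, the brown fat elongase Elovl3 and the cytochrome c oxidase subunit Cox5a (r = 0.978 to 0.981 for these 4). Ucp1 ranked 10 for Cpt1b (r = 0.968), and the muscle marker Acta1 had r = -0.054 with Cpt1b. WT replicate 2 was the highest library in Cpt1b, Ucp1 and Acta1 alike, and which cells the Cpt1b transcripts came from was not tested. Cpt1a was followed by the complement factor gene Cfb (r = 0.990), Sema5a, the peroxiredoxin Prdx4, Abi2 and Ttc30a1 (r = 0.984 to 0.987 for these 4). These values describe 6 libraries that share their composition, and they carry no test.

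**Figure D5:**
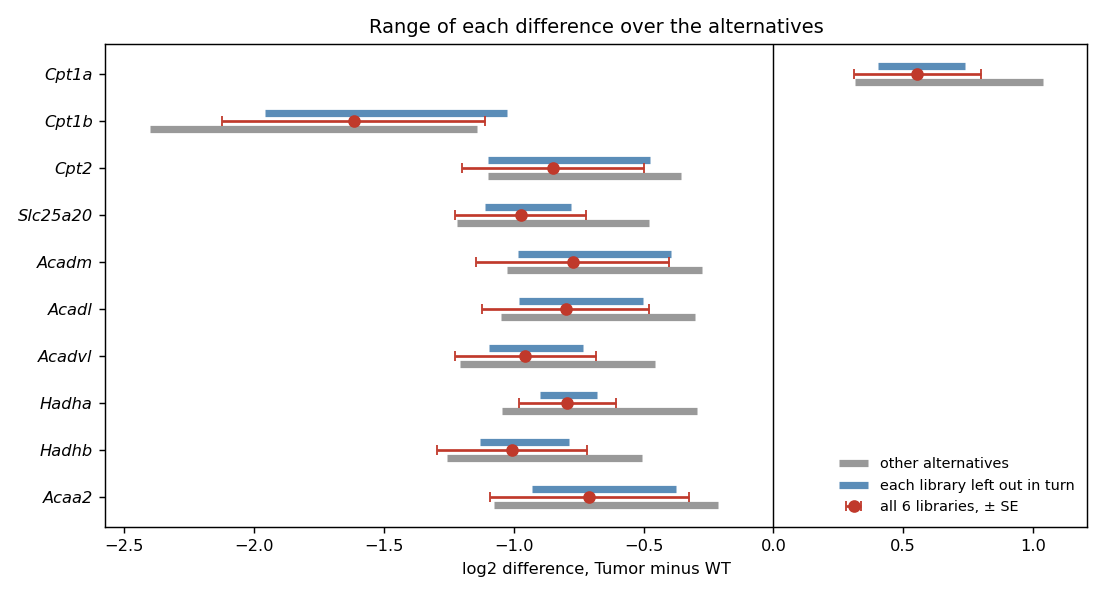
Log2 difference of each gene (Tumor minus WT, horizontal axis) with all 6 libraries and its SE (point and bar), the range over fits that each omit 1 library (blue) and the range over all other alternatives (grey). No range crosses 0, and those of Acaa2 and Acadm come closest to it.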

How the data were processed

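Poly-A RNA of subcutaneous white adipose tissue was sequenced in 6 libraries, with RNA integrity above 7 per the labels' protocols. The authors deposited TPM for 36144 gene rows in a table named as raw counts; the values are not whole and every column has the same sum. Per the submitters' processing notes the build was GRCm38.p6 and DESeq2 was used, with no role given; no source used here names the aligner or quantifier. TPM are shares, so abundant muscle or lymphoid transcripts lower all others. The value of 1 fragment came from single-transcript genes, where 83.7% to 87.0% of the small values fell no more than 0.15 from a whole number of steps.

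Limma 3.58.1 (R 4.3.3) tested log2(TPM + 1), Tumor against WT, with trend and robust moderation, over genes reaching 1 TPM in 3 or more libraries, and was tested on simulated data. P-values measure the spread between libraries, whose animals are not described further. Figures used matplotlib 3.10.9. Named were the 10 members, up to 4 genes per list with the smallest p, defining markers and up to 5 genes of the most similar pattern. Some genes that this rule names are not reported here. Members and lists were chosen with earlier results of these data known. Alternatives were filters, pseudocounts of 0.1 and 0.5, scalings, moderation without trend and robust options, marker covariates, a replicate block and leaving out each library; scaling to adipocyte markers (also for the lists) and the lymphoid-rich fit were added after seeing the data.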

Additional observations from a re-analysis of the deposited data

How the results depend on the processing

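No member reversed its direction under any of its 19 alternatives, and none passed an adjusted p of 0.05 (limma, lowest 0.205 with the lymphoid covariate). The lymphoid-poor pair of libraries, where Acaa2 was at 0.03, is not among the 19. The filters, the moderation without trend and robust options and the replicate block cannot change a member's difference. They can only change its p or adjusted p, so they say nothing about direction. Leaving out 1 library moved the median of the 10 between -1.03 (without Tumor replicate 1) and -0.60 (without Tumor replicate 3), and the count of members below every WT library between 7 and 8. Scaled to the adipocyte markers, the median was -0.33 and that count 0; in that scale the median of all genes was 0.69. With the lymphoid covariate 1 gene passed, Gm11594, named after its value was seen, at 0 TPM in all Tumor libraries and 8.44, 7.32 and 5.69 TPM in the WT libraries (limma adjusted p = 0.0222); in all 18 other alternatives 0 genes passed. In the fit with all 6 libraries, 241 genes were lower and 530 higher at an unadjusted p below 0.05. Median-ratio and upper-quartile factors gave a median of all genes of 0.03 and 0.01, against 0.23 in TPM, and brought that of the 10 to -1.05 and -1.07. With the replicate block 0 genes passed, the median was -0.82 and the members' limma adjusted p was 0.985. Deviations from the group mean had r = -0.758, 0.205 and -0.843 between libraries of the same number. The lymphoid-poor Tumor replicate 1 and WT replicate 3 had r = 0.853. Such differences in composition could hide a pairing, so whether the numbers pair the samples was not settled. Leaving out 1 library moved a difference over 1.5 times for Cpt2, Acadm, Acadl and Acaa2 without Tumor replicate 3 (-0.48, -0.39, -0.50 and -0.42) and for Cpt1b and Acaa2 without WT replicate 2 (-1.03 and -0.37). The causes were not tested. Read totals are unknown, and with 3 against 3 libraries no single exact test can go below 0.1.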

Other observations

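Peroxisomes shorten very long chains before mitochondria take them over. Of 15 tested peroxisomal genes (smallest limma adjusted p = 0.737) 11 had negative and 4 positive differences, 0 passed in limma, 2 lay below and 2 above every WT library, and the median was -0.20. Of all genes tested 23.2% were negative, 3.24% lay below and 11.8% above every WT library. Acaa1b, a peroxisomal thiolase, stood at 15.5, 11.3 and 4.66 TPM in the Tumor libraries and at 22.8, 32.2 and 30.9 TPM in the WT libraries, and the log2 difference was -1.49 with an SE of 0.42. Acox3, a peroxisomal oxidase, stood at 39.5, 50.3 and 54.8 TPM in the Tumor libraries and at 39.3, 25.5 and 33.1 TPM in the WT libraries, higher in each Tumor library by a margin that was small for Tumor replicate 1.

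Of 5 ketone body enzymes 2 were negative and 3 positive, with 0 past the test. Of 8 macrophage markers 7 were positive and 1 negative, where 23.2% of all genes were negative, with 0 past the test. Lyz2, a lysozyme of macrophages, stood at 2214, 1401 and 2167 TPM in the Tumor libraries and at 1234, 978 and 733 TPM in the WT libraries. Positive differences were found in 10856 of all 14144 genes tested, with a median of 0.23 over all. Markers of fibroblasts were positive in 7 of 7, with a median of 0.60, and all 7 overlapped between the groups. Their sum was 6964, 1848 and 862 TPM in the Tumor libraries and 1321, 921 and 2975 TPM in the WT libraries, highest in Tumor replicate 1 and lowest in Tumor replicate 3. Markers of endothelium were positive in 3 of 7, with a median of -0.05. In both lists 0 passed the test.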
